A study of Mus musculus with 12 samples.

Results

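The genes described here are the kallikrein-related proteases Klk5, Klk6, Klk7, Klk8, Klk9, Klk10, Klk11, Klk12, Klk13 and Klk14, chosen by name as the family members linked with shedding of the skin's outer layer. They are 10 of the 17853 genes measured and have 67 of the 235932 probe sets on the array. All 10 were measured, and none was dropped for a low value.

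Expression was measured on 12 Affymetrix mouse exon arrays, 3 for each of 4 cell populations sorted by flow cytometry from the epidermis of back skin in telogen, when hair follicles rest. All mice were female, of the C57BL6/CBA background, and carried the Gata6-mtomato reporter, in which red fluorescence marks cells that express the transcription factor Gata6. The labels describe the mice as matched for age without giving the age, no treatment is named, and how many mice went into a sample is not stated. The populations were Gata6+Itga6- cells, Gata6+Itga6+ cells, CD34+ cells (Itga6+ without the reporter, where CD34 marks the hair follicle bulge) and the remaining Itga6+ cells without reporter or CD34, here called remaining basal cells. Itga6 is an integrin chain of basal keratinocytes, although a free-text label calls all 12 samples basal, those sorted as lacking Itga6 included. The labels call the samples biological replicates.

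Kallikrein-related peptidases are secreted serine proteases that are made as inactive precursors and activated by removal of a short propeptide. In the outer epidermis KLK5, a trypsin-like enzyme, can activate KLK7 and KLK14, and these enzymes cut the corneodesmosomes that hold dead cells together, so that cells are shed. The inhibitor LEKTI, encoded by Spink5, restrains them, and its loss in Netherton syndrome leads to a defective skin barrier.

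Levels are log2 of the deposited intensity plus 1, and a gene's level is the median of its probe sets. The level of silent genes was set at 2.46 from 1144 olfactory and vomeronasal receptor genes, and 51% of all genes lay over it in at least 1 population. A gene was called where limma's adjusted p, taken over all genes of a comparison, was under 0.05. A fold whose lower mean was below the level of silent genes was computed against 2.46 and is written as "at least". In sorted pools, a smaller share of cells of a type and less RNA per cell cannot be told apart.

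The sort genes followed the labels. Gata6+Itga6- cells had a mean Gata6 level of 5.84 and Gata6+Itga6+ cells of 4.39. CD34+ cells had 2.84 and remaining basal cells 2.73. Itga6 was 6.02 in Gata6+Itga6- cells, against 6.76 to 7.67 in the others, and was called lower than in Gata6+Itga6+ and remaining basal cells (limma adjusted p = 0.0268 and 0.00367). It was not called lower than in CD34+ cells, and its level of 6.02 lay well over that of silent genes (2.46). Cd34 was 7.95 in CD34+ cells and 1.66 to 1.96 elsewhere. The brightness of the arrays overlapped between populations, with upper quartile intensities of 13.2 to 15.5 in Gata6+Itga6-, 15.7 to 16.6 in Gata6+Itga6+, 13.8 to 17.6 in CD34+ and 12.1 to 16.0 in remaining basal cells, except that all 3 Gata6+Itga6+ arrays were brighter than all 3 Gata6+Itga6- arrays.

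Klk5, Klk7 and Klk10 were higher in Gata6+Itga6- cells than in each of the other populations, by the widest margin for Klk7. Klk11 had another order, with its lowest level in CD34+ cells and its highest mean in remaining basal cells. The other 6 members lay at or near the level of silent genes throughout. The promoters of the 4 genes that changed clearly are shown first, because 3 of them moved together and all lie in one gene cluster. The sequences are from RefSeq on build GRCm38.p6, and all 10 members had an entry. Each runs from 250 bases before to 50 after the start of the gene on the plus strand, and capitals mark matches on either strand to words that GATA factors favour: AGATAA, or the word TGATAA, or the word AGATAG, or the word TGATAG.
Klk5 (chr7:43842019-43842318): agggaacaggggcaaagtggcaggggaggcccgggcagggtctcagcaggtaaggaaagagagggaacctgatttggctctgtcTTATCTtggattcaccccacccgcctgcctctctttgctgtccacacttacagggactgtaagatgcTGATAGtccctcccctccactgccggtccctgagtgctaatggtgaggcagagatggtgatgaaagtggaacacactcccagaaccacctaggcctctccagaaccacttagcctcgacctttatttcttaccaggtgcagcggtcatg
Klk7 (chr7:43811044-43811343): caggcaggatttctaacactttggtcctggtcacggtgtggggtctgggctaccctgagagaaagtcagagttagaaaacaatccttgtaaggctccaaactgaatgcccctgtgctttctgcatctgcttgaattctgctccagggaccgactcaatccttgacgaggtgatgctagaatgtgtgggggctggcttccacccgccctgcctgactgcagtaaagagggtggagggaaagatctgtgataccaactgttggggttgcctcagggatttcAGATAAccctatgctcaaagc
Klk10 (chr7:43780804-43781103): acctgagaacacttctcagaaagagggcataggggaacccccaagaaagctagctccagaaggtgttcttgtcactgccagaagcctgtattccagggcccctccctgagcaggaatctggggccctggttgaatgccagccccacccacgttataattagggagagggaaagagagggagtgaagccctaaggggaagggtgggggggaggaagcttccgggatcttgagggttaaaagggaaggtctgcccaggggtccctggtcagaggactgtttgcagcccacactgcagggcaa
Klk11 (chr7:43774367-43774666): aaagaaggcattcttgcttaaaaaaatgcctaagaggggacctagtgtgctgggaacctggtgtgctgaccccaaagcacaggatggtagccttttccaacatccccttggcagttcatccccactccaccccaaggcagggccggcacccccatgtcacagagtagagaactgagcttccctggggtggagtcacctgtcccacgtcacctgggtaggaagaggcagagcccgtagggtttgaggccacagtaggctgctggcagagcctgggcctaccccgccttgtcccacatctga

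The Klk5 window held 2 matches, TTATCT on the reverse strand starting 166 bases before the gene's start and TGATAG starting 99 bases before it. The Klk7 window held AGATAA, whose first base lies 29 bases after the start. The Klk10 and Klk11 windows held none of these words. Such words are common: 29.8% of 32851 promoter windows of this length held at least 1, as did 4 of the 12 windows of the 10 kallikreins, of which Klk6 and Klk11 have 2 windows each. The other windows with a match were the second window of Klk6 and that of Klk12, and neither gene rose over the level of silent genes. The TATA word TATAAA, found in 13.6% of all windows, the AP-1 word TGANTCA, found in 7.81%, and the grainyhead word AACNNGTT, found in 4.2%, had no match in the 12 kallikrein windows. These matches describe letters in the windows and nothing about binding.

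Klk7 encodes a chymotrypsin-like enzyme that cuts corneodesmosin and desmocollin 1. Its levels in the 3 Gata6+Itga6- arrays were 6.42, 7.22 and 6.80, a mean of 6.81 ± 0.402 (SD, n = 3). In Gata6+Itga6+ cells they were 3.50, 3.18 and 2.74, in CD34+ cells 3.08, 2.53 and 2.45, and in remaining basal cells 2.34, 2.46 and 2.28. All 3 Gata6+Itga6- arrays lay far over the other 9, whose highest value was 3.50. The mean was 12.8-fold that of Gata6+Itga6+ cells (limma adjusted p = 5.7e-05, log2 change 3.68, SE 0.25) and 17.5-fold that of CD34+ cells (log2 change 4.13, adjusted p = 3.4e-06). Against remaining basal cells, whose mean was below 2.46, it was at least 20.4-fold (log2 change 4.46, adjusted p = 4.5e-06).

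Klk10 encodes a kallikrein that is also known as normal epithelial cell-specific 1. The Gata6+Itga6- arrays gave 5.76, 5.45 and 6.62 (5.94 ± 0.607, SD, n = 3), and the Gata6+Itga6+ arrays 3.15, 3.15 and 2.13. CD34+ cells gave 2.83, 2.12 and 2.16, and remaining basal cells gave 3.24, 3.04 and 3.51. Again no array of another population reached the lowest Gata6+Itga6- array. The folds were 8.77 over Gata6+Itga6+ cells (limma adjusted p = 0.00133, log2 change 3.13, SE 0.36), at least 11.2 over CD34+ cells (log2 change 3.57, adjusted p = 0.000119) and 6.41 over remaining basal cells (log2 change 2.68, adjusted p = 0.00133).

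Klk5, the trypsin-like enzyme that starts the activation cascade, measured 3.77, 4.95 and 3.87 in Gata6+Itga6- cells (4.19 ± 0.653, SD, n = 3). Gata6+Itga6+ cells gave 2.98, 2.54 and 2.37, CD34+ cells 2.53, 2.89 and 2.06, and remaining basal cells 1.79, 1.95 and 2.08. The Gata6+Itga6- arrays lay over all others, with a narrower gap than for Klk7. The mean was 2.96-fold that of Gata6+Itga6+ cells (limma adjusted p = 0.0262, log2 change 1.56, SE 0.32). It was 3.26-fold that of CD34+ cells, whose mean of 2.49 lay barely over the 2.46 of silent genes (log2 change 1.70, limma adjusted p = 0.00716). Against remaining basal cells it was at least 3.32-fold (log2 change 2.25, limma adjusted p = 0.00184). The first of these calls was lost in 5 of 23 alternative fits, among them those without Gata6+Itga6+ replicate 2 (adjusted p = 0.0832) or replicate 3 (0.106) and the fit with array brightness as a covariate (0.0594). The second was lost where only the compared populations were fitted (adjusted p = 0.0561). The calls of Klk7 and Klk10 in these comparisons were kept in all 23 alternatives. With each probe set tested alone, where a gene counted if at least as many of its probe sets were called as not, Klk10 was not counted against Gata6+Itga6+ cells (3 of 7 probe sets called), nor was Klk5 (1 of 6), and Klk5 was not counted against CD34+ cells either (2 of 6).

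**Figure D1:**
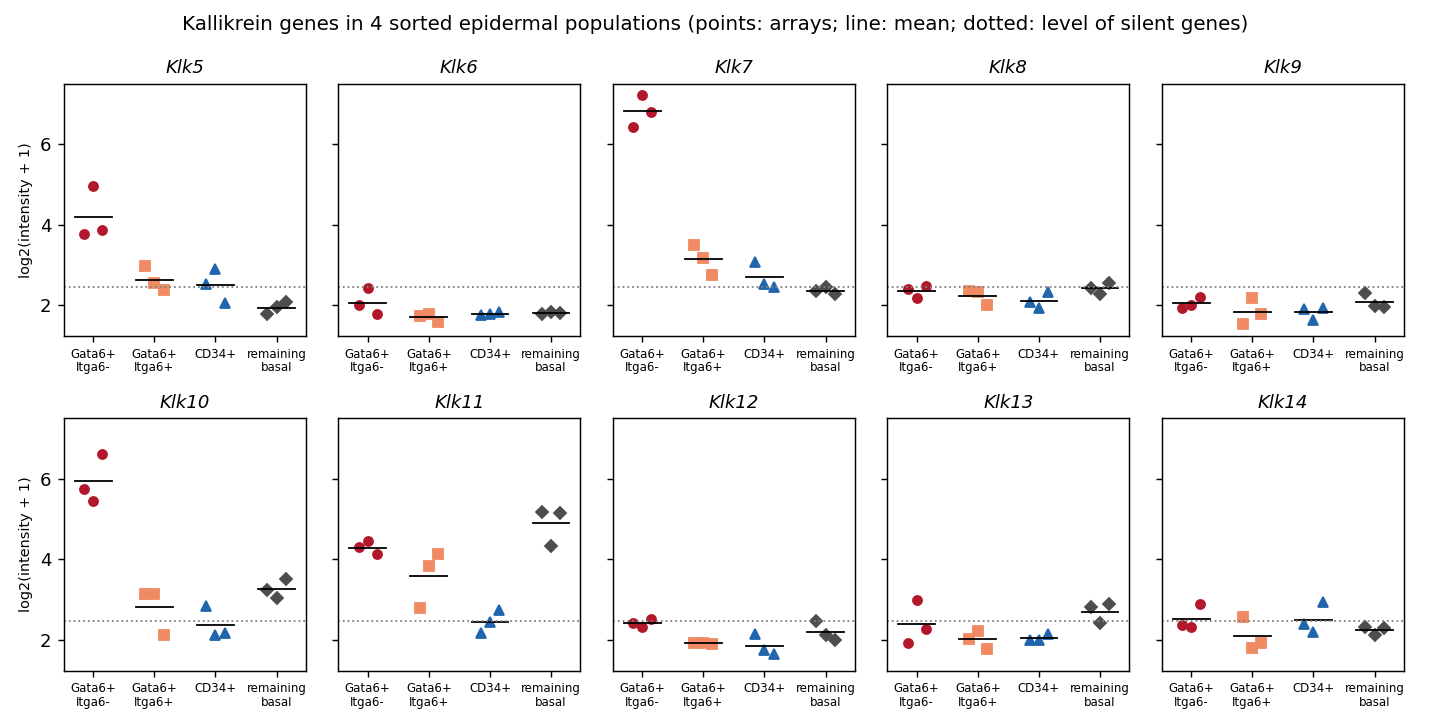
Log2(intensity + 1) of each of the 10 kallikrein genes in the 12 arrays, by population; points are arrays, lines the mean of 3 and the dotted line the level of silent genes (2.46). For Klk5, Klk7 and Klk10 the 3 Gata6+Itga6- arrays lie over the 9 others, while Klk11 is lowest in CD34+ cells (mean 2.44) and highest in remaining basal cells (mean 4.89).

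Within the Gata6+Itga6- arrays, Klk5 and Klk7 were highest in replicate 2, where Klk10 was lowest. Across all 12 arrays Pearson's r was 0.94 between Klk5 and Klk7, 0.92 between Klk7 and Klk10 and 0.76 between Klk5 and Klk10. The 12 points share 4 populations, so these values mostly describe the step between populations.

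Counted over the family, Gata6+Itga6- cells had 3 of 10 members called higher than Gata6+Itga6+ cells, a comparison in which 1.17% of all genes were called higher. In the comparison with CD34+ cells 5 of 10 were called higher (3.22% of all genes), and with remaining basal cells 3 of 10 (2.96% of all genes). The 5 include Klk12, whose means were both under the level of silent genes. The count was 3 with the brightest probe set or with only the compared populations in the fit, and 2 with each probe set tested alone. Against CD34+ cells the first 2 of these fits called 1163 and 1132 of all genes in either direction, beside 1421 in the fit reported. No member was called lower in these comparisons with limma, where 2.01%, 4.74% and 2.15% of all genes were. The median change of the 10 members was 0.47, 0.47 and 0.24 on the log2 scale, beside -0.03, -0.02 and 0.00 for all genes. All 3 Gata6+Itga6- arrays lay over all 9 others for 3 of the 10 members, Klk5, Klk7 and Klk10, and for 2.35% of all genes. These comparisons share the Gata6+Itga6- arrays and are not independent of each other. The members were also chosen with earlier results of these data known.

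**Figure D2:**
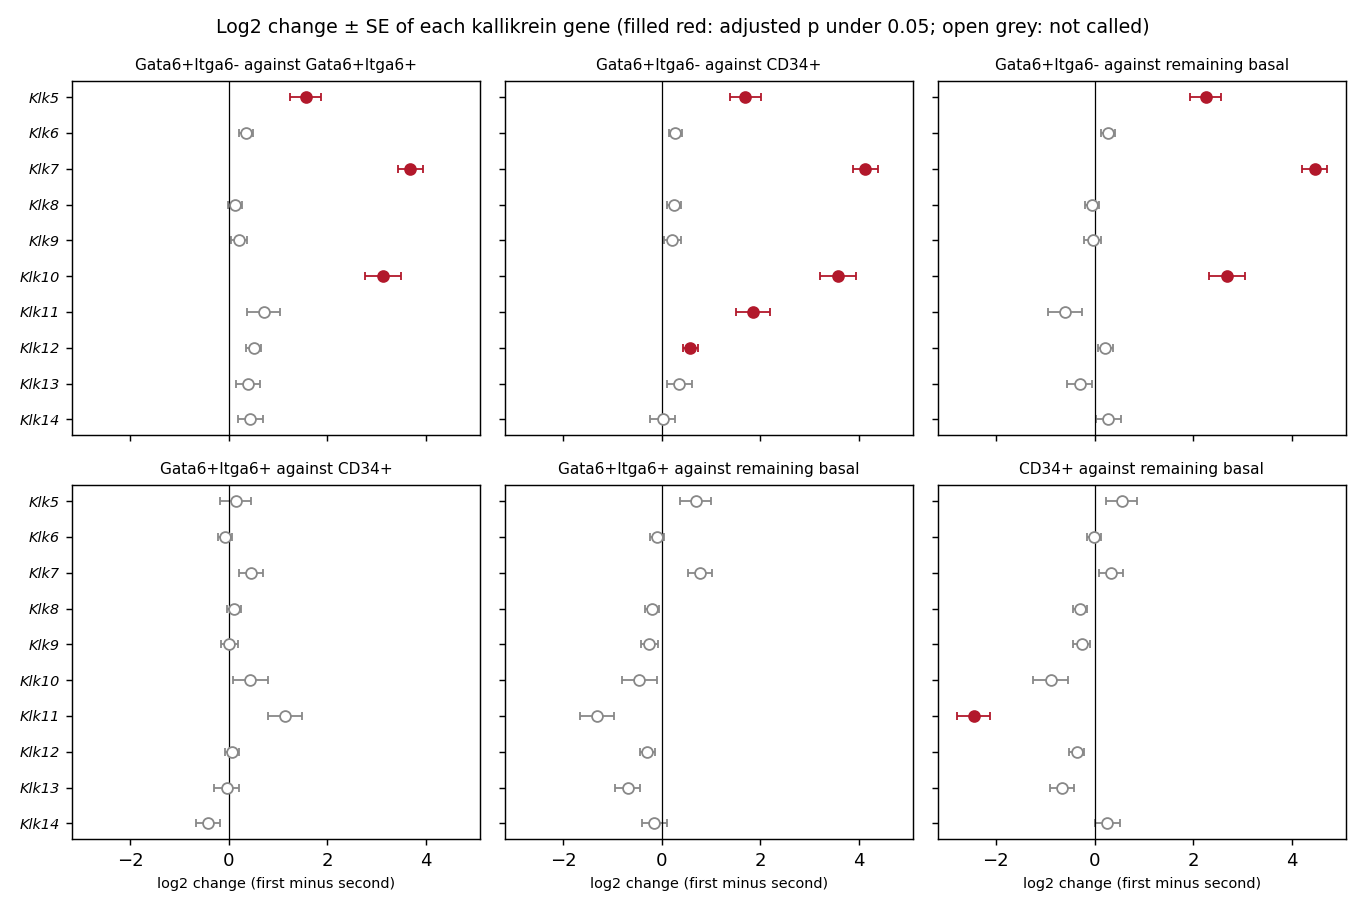
Log2 change of each kallikrein gene in the 6 comparisons of populations, with bars of 1 SE from limma; filled points have an adjusted p under 0.05. The changes of Klk7 (3.68 to 4.46) and Klk10 (2.68 to 3.57) in the comparisons of Gata6+Itga6- cells stand to the right of all others, and the comparisons among the Itga6+ populations hold 1 called change, that of Klk11 (-2.45).

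The Gata6+Itga6+ cells carry the reporter as well. No member was called between Gata6+Itga6+ and CD34+ cells with limma, where 4.59% of all genes were called in either direction, and 1 member had an unadjusted p under 0.05. Between Gata6+Itga6+ and remaining basal cells no member was called (1.36% of all genes), and 3 had an unadjusted p under 0.05. Klk7 measured 0.45 higher on the log2 scale in Gata6+Itga6+ than in CD34+ cells (SE 0.25, limma adjusted p = 0.482). Against remaining basal cells it measured 0.78 higher (adjusted p = 0.232), with all 3 arrays over all 3. With the mean of the probe sets in place of the median, these Klk7 differences were 0.91 (adjusted p = 0.00849) and 0.98 (adjusted p = 0.0133), past the threshold. That summary also raised the calls over all genes, from 819 to 1300 and from 242 to 454. Klk5 measured 0.14 higher than in CD34+ cells (adjusted p = 0.928) and 0.69 higher than in remaining basal cells (adjusted p = 0.438). For Klk10 the values were 0.44 (adjusted p = 0.694) and -0.45 (adjusted p = 0.71).

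Klk11 encodes a trypsin-like kallikrein. Its levels were 5.19, 4.33 and 5.16 in remaining basal cells (4.89 ± 0.487, SD, n = 3). Gata6+Itga6- cells gave 4.30, 4.45 and 4.13 (4.29 ± 0.161), and Gata6+Itga6+ cells gave 2.78, 3.84 and 4.13 (3.58 ± 0.706). CD34+ cells had the lowest levels, 2.17, 2.44 and 2.73 (2.44 ± 0.277), which overlapped with no array of the other populations. Klk11 was at least 5.39-fold higher in remaining basal than in CD34+ cells (log2 change of CD34+ against remaining basal cells -2.45, SE 0.34, limma adjusted p = 0.00186). It was the only one of the 10 members called in that comparison, where 1.67% of all genes were called lower and 3.32% higher in CD34+ cells. The Gata6+Itga6- level was at least 3.56-fold that of CD34+ cells (log2 change 1.85, adjusted p = 0.00689). Neighbours in the order did not differ past the threshold between remaining basal and Gata6+Itga6- cells (-0.60 for the latter minus the former, adjusted p = 0.492), between Gata6+Itga6- and Gata6+Itga6+ cells (0.71, adjusted p = 0.417) or between Gata6+Itga6+ and CD34+ cells (1.14, adjusted p = 0.108). The last of these was called without Gata6+Itga6+ replicate 1 (adjusted p = 0.0153), the array in which Klk11 was lowest of its population. Gata6+Itga6+ cells lay under remaining basal cells in all 3 arrays (-1.31, adjusted p = 0.126), a difference that was called after quantile normalization again (adjusted p = 0.0348). The pattern rested on part of the gene's probe sets: with the brightest probe set alone, Gata6+Itga6- minus CD34+ was -0.44 (adjusted p = 0.461) and CD34+ minus remaining basal was 0.31 (adjusted p = 0.691).

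Of the 10 members, 6 lay over the level of silent genes in at least 1 population, namely the 4 above with Klk13 and Klk14, and Klk6, Klk8, Klk9 and Klk12 lay under it in all 4. Klk14, a trypsin-like enzyme of the shedding cascade, had means of 2.53, 2.09, 2.51 and 2.24 in Gata6+Itga6-, Gata6+Itga6+, CD34+ and remaining basal cells. Its arrays (1.79 to 2.93 in all) overlapped between populations in every comparison but 1. The Gata6+Itga6- arrays, at 2.36, 2.33 and 2.89, lay over the remaining basal arrays, at 2.32, 2.12 and 2.29. This difference was small and not called (0.28, limma adjusted p = 0.724), and 9.79% of all genes were separated in this way. Limma's F test over the 4 populations gave an adjusted p of 0.606. Klk13 measured 2.82, 2.41 and 2.88 in remaining basal cells (mean 2.70) and 1.93, 3.00 and 2.27 in Gata6+Itga6- cells (mean 2.40), with means of 2.01 in Gata6+Itga6+ and 2.04 in CD34+ cells (F test adjusted p = 0.256). The remaining basal arrays lay over those of the last 2 populations without a call. Its brightest probe set ran the other way, with CD34+ 1.13 higher than remaining basal cells on the log2 scale (limma adjusted p = 0.0494), where the gene's median gave -0.66 (adjusted p = 0.208).

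Klk12 was called between Gata6+Itga6- cells (2.42, 2.31 and 2.51) and CD34+ cells (2.14, 1.74 and 1.64), with a log2 difference of 0.58 (SE 0.15, limma adjusted p = 0.0449). Both means, 2.41 and 1.84, lay under the level of silent genes, so no fold is given, and 15 of 22 alternatives lost the call (adjusted p 0.0123 to 0.456 over them). Klk6, known as neurosin, had means of 1.70 to 2.06. Klk8, known as neuropsin, had means of 2.11 to 2.42, and Klk9 of 1.82 to 2.08. None of these 3 was called by limma in any comparison, and their F tests gave adjusted p-values of 0.421, 0.524 and 0.668. Over the family, limma's F test called 4 of 10 members, Klk5, Klk7, Klk10 and Klk11, and 9.38% of all genes.

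Each probe set measures a stretch of exon, so the 67 probe sets show how far a gene's exons went together. Of these, 48 lay over the level of silent genes in at least 1 population, as did 59.5% of all probe sets, and 17 had all 3 Gata6+Itga6- arrays over all 9 others, as did 1.69% of all. Fitted over all 221205 probe sets with 1 symbol, 7 kallikrein probe sets were called higher in Gata6+Itga6- cells against Gata6+Itga6+ cells (0.265% of all), 15 against CD34+ cells (1.55% of all) and 13 against remaining basal cells (1.37% of all). In CD34+ against remaining basal cells 3 were lower (0.731% of all), 2 of Klk11 and 1 of Klk10.

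Of the 6 probe sets of Klk7, 5 were higher in Gata6+Itga6- than in CD34+ and in remaining basal cells, and 3 than in Gata6+Itga6+ cells. The one with the widest difference had means of 8.68 in Gata6+Itga6-, 5.59 in Gata6+Itga6+, 3.10 in CD34+ and 2.63 in remaining basal cells. At this probe set the Gata6+Itga6+ arrays, at 6.24, 5.81 and 4.72, lay over every CD34+ and remaining basal array, although neither difference was called (2.49 with adjusted p = 0.145 and 2.96 with adjusted p = 0.144). The sixth Klk7 probe set was flat, with means of 2.55 to 2.84. Of the 7 probe sets of Klk10, 6 were higher than in CD34+ cells, 4 than in remaining basal cells and 3 than in Gata6+Itga6+ cells. The one with the widest difference had means of 6.66, 2.73, 1.85 and 2.02 in the same order of populations, and its difference from CD34+ cells was 4.82 (limma adjusted p = 1.8e-05).

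Of the 6 probe sets of Klk5, 4 were higher than in remaining basal cells, 2 than in CD34+ and 1 than in Gata6+Itga6+ cells. Its brightest had means of 6.79, 4.55, 2.83 and 2.64, and 1 of the 6 did not follow (2.03, 2.46, 2.78 and 1.97). Among the 7 of Klk11, 2 were higher in Gata6+Itga6- and in remaining basal than in CD34+ cells, with means of 5.27, 3.66, 2.71 and 5.20 and of 5.14, 4.35, 3.26 and 5.93. The brightest Klk11 probe set was flat at 4.95, 5.11, 5.39 and 5.08. Single bright probe sets without a call were also seen in genes whose median was low: 1 of Klk12 read 6.69 to 7.96 on all 12 arrays, 1 of Klk14 read 5.14 to 6.54 and 1 of Klk8 read 4.32 to 7.64. The Klk14 one had means of 6.27, 5.77, 5.67 and 5.53 in Gata6+Itga6-, Gata6+Itga6+, CD34+ and remaining basal cells. Its 3 Gata6+Itga6- arrays lay over the 9 others, by a margin lost in rounding (6.06 and 6.06).

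**Figure D3:**
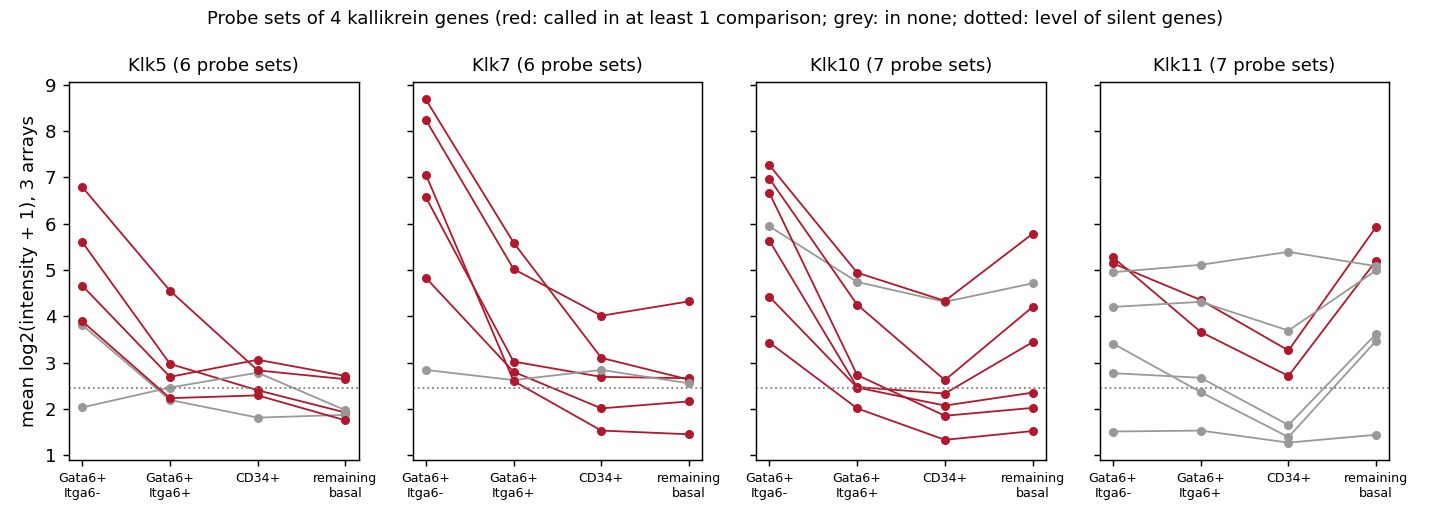
Mean log2(intensity + 1) over 3 arrays of each probe set of Klk5, Klk7, Klk10 and Klk11 in the 4 populations; a line joins the means of 1 probe set, red where it was called in at least 1 comparison and grey where in none. Most lines of Klk7 and Klk10 start high in Gata6+Itga6- cells (up to 8.68 and 7.26) and drop, and most of Klk11 dip in CD34+ cells, while its brightest is flat (4.95 to 5.39).

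The 10 members follow each other along mouse chromosome 7 as consecutive protein-coding genes in the order Klk14, Klk13, Klk12, Klk11, Klk10, Klk9, Klk8, Klk7, Klk6 and Klk5 (RefSeq, GRCm38.p6). The genes higher in Gata6+Itga6- cells were not all neighbours. Klk10 and Klk7 are separated by Klk9 and Klk8, and Klk7 and Klk5 by Klk6, all under the level of silent genes in all 4 populations. Klk10 and Klk11, which had different orders of populations, lie side by side. Of 16 further kallikrein genes of the locus, 14 were measured, and limma called none in any of the 6 comparisons, with 0 to 2 per comparison at an unadjusted p under 0.05. Of these, 3 lay over the level of silent genes, all of them Klk1b genes, whose near-identical copies may share probes and are uncertain.

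**Figure D4:**
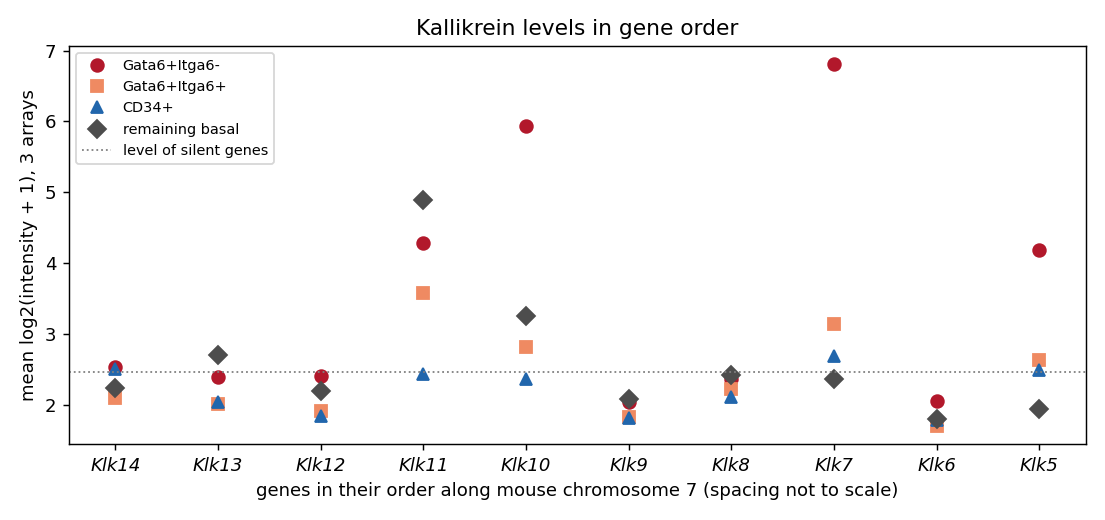
Mean log2(intensity + 1) over 3 arrays of the 10 kallikrein genes in their order along chromosome 7, spacing not to scale, with the level of silent genes (2.46) dotted. The high Gata6+Itga6- means of Klk10 (5.94), Klk7 (6.81) and Klk5 (4.19) are set apart by genes at or under that level.

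The genes with profiles most like each member were taken by Pearson's r over the 12 arrays among the 9108 genes over the level of silent genes in some population. For Klk7 they were Skint2 (r = 0.987), the keratin gene Krt23 (0.985) and the myosin gene Myo5b (0.983). Krt23 had means of 6.56 in Gata6+Itga6-, 2.22 in Gata6+Itga6+, 1.55 in CD34+ and 1.58 in remaining basal cells. For Klk10 they were Anxa9 (0.954), the epidermal cytochrome P450 gene Cyp2b19 (0.947) and Tgm1 (0.945), the transglutaminase of the cornified envelope. Tgm1 had means of 3.58 in Gata6+Itga6- cells and 2.00 in each of the others. For Klk5 they were Ttc39c (0.945), the keratin gene Krt17 (0.944) and Adgrf2 (0.943), and the mean of Krt17 was 7.73 in Gata6+Itga6- cells against 4.53 in remaining basal cells. For Klk11 they were Slitrk6 (0.883), Mapkapk5 (0.879) and Ptgfrn (0.871), and Slitrk6 was likewise highest in remaining basal (5.34) and lowest in CD34+ cells (1.66), but its mean of 4.20 in Gata6+Itga6+ cells was over that of 3.77 in Gata6+Itga6- cells. For Klk13 and Klk14, whose levels lay near that of silent genes, r reached 0.920 (Parm1) and 0.842 (Ncoa5).

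Among 27 measured inhibitors of kallikreins and related proteases, Gata6+Itga6- cells had 2 higher and 1 lower against Gata6+Itga6+ cells, 3 higher and 2 lower against CD34+ cells, and 3 higher and 2 lower against remaining basal cells. Of all genes, 1.17%, 3.22% and 2.96% were called higher and 2.01%, 4.74% and 2.15% lower in these 3 comparisons. These shares also belong beside the counts of the lists that follow. The median changes of the inhibitors were 0.01, 0.02 and 0.18, beside -0.03, -0.02 and 0.00 for all genes. Spink5, which encodes the kallikrein inhibitor LEKTI, measured 8.33, 8.36 and 8.36 in Gata6+Itga6- cells. Gata6+Itga6+ cells gave 6.37, 6.30 and 5.83, CD34+ cells 4.29, 4.19 and 4.63, and remaining basal cells 4.75, 4.38 and 5.34. No Gata6+Itga6- array overlapped with the others. It was 4.54-fold higher than in Gata6+Itga6+ cells (limma adjusted p = 0.000834, log2 change 2.18, SE 0.23), 15.8-fold than in CD34+ and 11.5-fold than in remaining basal cells (adjusted p = 2.7e-06 and 1.2e-05). Spink5 was also called higher in Gata6+Itga6+ than in CD34+ cells (1.80, adjusted p = 0.00137) and remaining basal cells (1.34, adjusted p = 0.0215). No kallikrein was called there, but a difference between genes in this respect was not tested.

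Cst6, a cystatin that inhibits cysteine proteases, had means of 9.09, 7.19, 2.25 and 2.30 in Gata6+Itga6-, Gata6+Itga6+, CD34+ and remaining basal cells. Between the reporter-positive populations it differed 3.72-fold (log2 change 1.90, limma adjusted p = 0.0093). Other inhibitors had other orders. Wfdc3 was highest in CD34+ cells (6.17, against 2.39 to 2.61 elsewhere; CD34+ against remaining basal 3.78, adjusted p = 3.6e-05). Serpinb2, an inhibitor of plasminogen activators, was highest in remaining basal cells (6.91), and its mean of 3.13 in Gata6+Itga6- cells was under that of 4.64 in Gata6+Itga6+ cells (adjusted p = 0.0315).

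Of 22 measured substrates and receptors of kallikreins, Cdsn and Dsc1 were higher in Gata6+Itga6- cells against Gata6+Itga6+ cells, a count of 2, and none was lower. Against CD34+ cells 4 were higher and 1 lower, and against remaining basal cells 3 higher and 1 lower, with median changes over the list of 0.04, 0.17 and -0.01. Cdsn, corneodesmosin, measured 3.41, 4.03 and 4.98 in Gata6+Itga6- cells, with means of 2.67, 2.77 and 2.39 in Gata6+Itga6+, CD34+ and remaining basal cells, so all 3 arrays lay over the others. The fold over Gata6+Itga6+ cells was 2.78 (limma adjusted p = 0.0309, log2 change 1.48, SE 0.31). Dsc1, desmocollin 1, had means of 8.42, 5.71, 1.69 and 2.24 in the same order of populations, a 6.56-fold difference between Gata6+Itga6- and Gata6+Itga6+ cells (adjusted p = 0.000357). Dsg1a, a desmoglein of the upper epidermis, had means of 8.76, 7.77, 4.22 and 7.77, with its low point in CD34+ cells as for Klk11. Dsg3, the basal desmoglein, ran the other way (5.81, 6.68, 7.68 and 6.43) and its level in Gata6+Itga6- cells was under that in CD34+ cells (adjusted p = 0.00355). F2rl1, the receptor PAR2 that KLK5 can activate, had its highest mean in Gata6+Itga6+ cells (4.79, 6.19, 3.80 and 5.01) and was called higher there than in CD34+ cells (2.39, adjusted p = 0.0288).

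Among 27 other proteases of the outer epidermis, Gata6+Itga6- cells had 2 higher and 2 lower against Gata6+Itga6+ cells, 6 higher and 2 lower against CD34+ cells, and 3 higher and 3 lower against remaining basal cells, with median changes of 0.01, 0.19 and 0.14. St14, encoding matriptase, an upstream activator of kallikrein precursors, had means of 5.47, 4.21, 3.32 and 3.31. It was 4.43-fold higher in Gata6+Itga6- than in CD34+ cells (log2 change 2.15, SE 0.42, limma adjusted p = 0.00985), and its difference of 1.26 from Gata6+Itga6+ cells was not called (adjusted p = 0.186). Prss8, encoding prostasin, was not called against remaining basal cells (0.98, adjusted p = 0.0567). The lysosomal aspartic protease gene Ctsd was higher in Gata6+Itga6- cells (6.77) than in the others (4.96, 4.81 and 4.21), with an adjusted p of 0.0406 against Gata6+Itga6+ cells. Ctsc, cathepsin C, had means of 3.74, 2.74, 1.67 and 2.03. Ctsl, cathepsin L, ran the other way, with 3.54 in Gata6+Itga6- and 5.10, 6.72 and 6.58 in the other populations, and so did the secreted serine protease gene Htra1, with 2.21, 5.49, 3.42 and 6.25. Tmprss13, a membrane serine protease gene, was higher in Gata6+Itga6- (3.21) than in CD34+ cells (1.95, adjusted p = 0.00154).

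**Figure D5:**
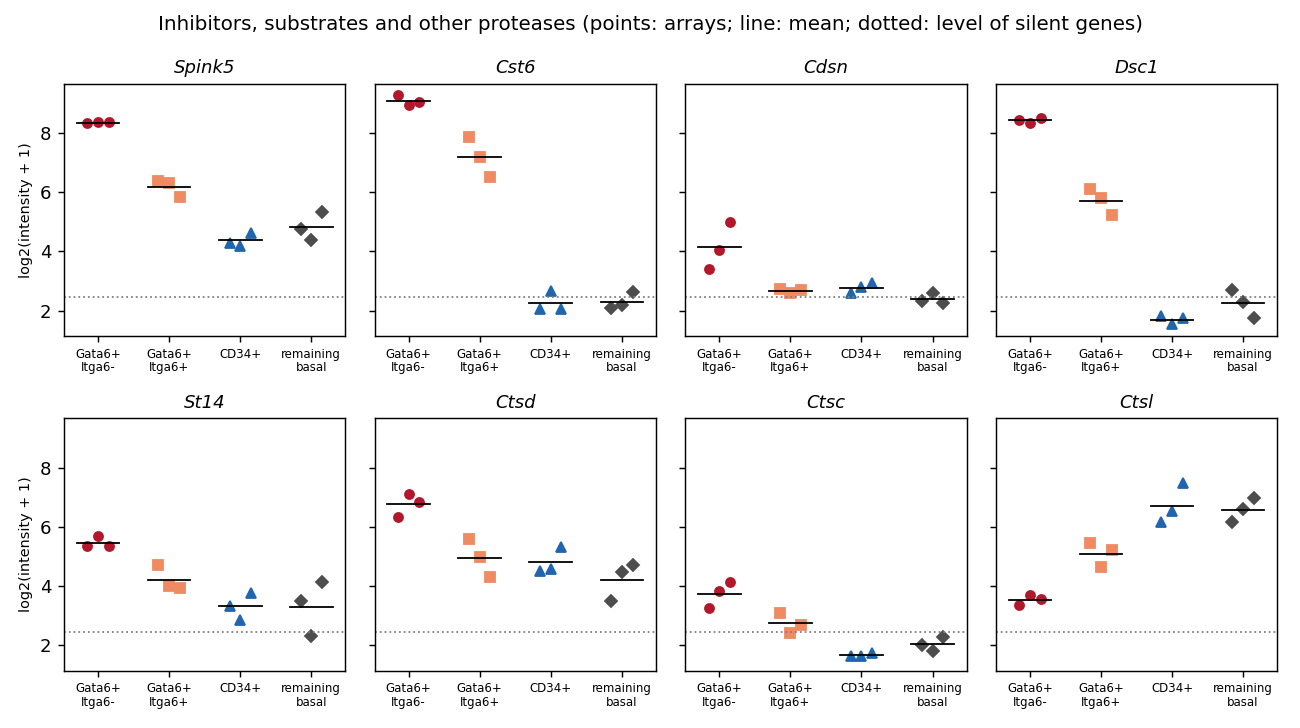
Log2(intensity + 1) of 8 genes that inhibit kallikreins or other proteases (Spink5, Cst6), are cut by kallikreins (Cdsn, Dsc1) or are other proteases (St14, Ctsd, Ctsc, Ctsl); points are arrays, lines the mean of 3. Spink5, Cst6 and Dsc1 step down from Gata6+Itga6- (8.35, 9.09, 8.42) to Gata6+Itga6+ cells (6.17, 7.19, 5.71) and again to the others, and Ctsl runs the other way.

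Kallikreins act among the products of cornified layer genes. Of 37 such genes measured, Gata6+Itga6- cells had 10 higher and 1 lower against Gata6+Itga6+ cells (1.17% and 2.01% of all genes). Against CD34+ cells 18 were higher and 2 lower (3.22% and 4.74%), and against remaining basal cells 15 higher and 2 lower (2.96% and 2.15%). The median changes were 0.16, 1.27 and 0.53. Ivl, involucrin of the cornified envelope, had means of 5.67, 2.81, 1.54 and 1.51, and Grhl3, a transcription factor of the epidermal barrier, 6.52, 5.04, 2.91 and 3.93. Not all followed: Tgm5, another transglutaminase gene, was highest in CD34+ cells (7.71, against 2.40 to 2.91). Of 11 upper follicle and duct genes Gata6+Itga6- cells had 6 higher and 1 lower against Gata6+Itga6+ cells (1.17% and 2.01% of all genes). The sort gene Gata6 is among the 6. The duct keratin gene Krt79 of that list had means of 9.52, 7.91, 2.63 and 3.12.

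Markers of other cells were read in the same arrays. The 6 basal keratinocyte markers were lower in Gata6+Itga6- cells. Called were 6 of 6 against Gata6+Itga6+ and remaining basal cells (2.01% and 2.15% of all genes). Against CD34+ cells 5 of 6 were called, all but Itga6 (4.74% of all genes). Itga6 was used for the sort, so its place in these counts is no independent result. The mean level of the 6 markers per array was 5.66 to 6.24, against 7.38 to 8.11 in the others. Their part in the kallikrein differences was not tested. The mean level of 8 Langerhans cell and macrophage markers was 2.11 to 2.24 in Gata6+Itga6- cells, 1.86 to 1.96 in Gata6+Itga6+, 1.73 to 1.89 in CD34+ and 1.83 to 1.94 in remaining basal cells. Limma called none of them in the 3 comparisons of Gata6+Itga6- cells, with 1 to 2 at an unadjusted p under 0.05. Without a call, 4, 5 and 3 of the 8 had all Gata6+Itga6- arrays over those of Gata6+Itga6+, CD34+ and remaining basal cells, as did 6.52%, 9.8% and 9.79% of all genes. Of the 8, the antigen presentation genes H2-Aa and H2-Ab1 had means of 3.38 and 3.01 in Gata6+Itga6- cells, over the level of silent genes. Cd207, which defines Langerhans cells, lay under it in all populations (1.71 to 1.91). Of 10 sebocyte markers none was called higher in Gata6+Itga6- than in Gata6+Itga6+ or CD34+ cells and 2 (Mgst1 and Plin2) were higher than in remaining basal cells. Scd1 was called lower than in Gata6+Itga6+ (-1.72) and remaining basal cells (-2.08). Scd1, Mgst1, Fasn and Plin2, 4 of the 10, lay over the level of silent genes in Gata6+Itga6- cells, and the sebocyte genes Awat1, Elovl3, Cidea and Mc5r lay under it in all populations. In the same 3 comparisons limma called none of the T cell, endothelial, neutrophil and mast cell, sweat gland, or inner root sheath and hair shaft markers, with 0 to 2 of a list at an unadjusted p under 0.05. Other lists did hold calls. Of 7 bulge stem cell markers 5 were lower against CD34+ cells (4.74% of all genes), the sort gene Cd34 among them. Against remaining basal cells 3 were higher (2.96%). Of 4 companion layer and inner bulge markers 3 were lower against CD34+ cells, as was 1 of 6 dermal fibroblast markers. The 7 spinous and granular markers had 2 higher and 1 lower against Gata6+Itga6+ cells. They had 5 higher against CD34+ cells, and 3 higher and 1 lower against remaining basal cells. Of 6 melanocyte markers Kit was called higher against CD34+ and remaining basal cells. The part of these markers in the kallikrein differences was not tested.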

How the data were processed

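Expression was measured on 12 exon arrays, 3 for each of 4 populations. Intensities of 235932 exon probe sets were deposited. The authors processed them with RMA in Affymetrix Power Tools on mouse build mm9, per the submitters' processing notes, and the notes used here give no versions. The scale is not stated. It was taken as linear from the values (array medians 3.97 to 4.57, maxima 2172 to 2953), although RMA usually gives log2 values, and every level and fold rests on this reading. RMA brings arrays to a common scale, so a shift shared by most genes would be reduced.

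Of the probe sets, 221205 had 1 gene symbol, 1684 several and 13043 none listed; only the first were used. With the reference gene table of GRCm38.p6, 15377 symbols were current, 2489 were updated and 42 kept. Genes were summarised as the median log2(intensity + 1) over probe sets, typically 10 a gene. The added 1 understates changes of dim genes. The level of silent genes, 2.46, was the 95th percentile of the population means of 1144 receptor genes. It left 9108 genes over it in at least 1 population and 8745 under it in all.

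Levels of 17853 genes on the 12 arrays were fitted together, each population with its own mean, with limma 3.58.1 in R 4.3.3 (residual degrees of freedom 8, prior 2.12), with Benjamini-Hochberg adjustment over all genes of each of the 6 comparisons and a threshold of 0.05; the code was tested on simulated data. Probe sets were also fitted alone, an alternative chosen after seeing the data. Changes carry the model's SE and levels the SD. The number of arrays limits the precision, and p-values measure the spread between these samples, since the labels do not say how many mice each holds. Replicate numbers were not taken to pair the samples.

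All kallikrein members are named. From each other list the text names up to 4 called genes with the smallest adjusted p over the comparisons and, for each kallikrein over the level of silent genes, the 3 genes of highest correlation. Ctsd, St14, Prss8, F2rl1, Krt1 and the single markers of other cells are named because of their values. The members and the lists were chosen with earlier results of these data known. Promoter sequences are those of RefSeq. Alternatives changed the pseudocount, the summary of a gene, normalization, filter, samples, covariates, blocks and variance moderation, and left out each array in turn.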

Additional observations from a re-analysis of the deposited data

How the results depend on the processing

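Of 166 recomputed counts of called kallikreins, 156 stayed within 1.5 times the count reported, and of 597 recomputed changes of single members (all comparisons of Klk5, Klk7, Klk10 and Klk11, and 1 each of Klk12 and Klk13) 568 kept their side of the threshold, and their direction where called. Changes called in neither fit count among the 568, so this total does not measure how stable the calls were. A call was lost with the direction kept in 21. Of these, 15 were of Klk12 against CD34+ cells and 5 of Klk5 against Gata6+Itga6+ cells. In Gata6+Itga6- against Gata6+Itga6+ cells, 3 members were called, and 1 (Klk7) with each probe set tested alone, where a gene counts if most of its probe sets, or as many as not, are called. Against CD34+ cells 5 were called, but 3 with the brightest probe set, 3 with only the compared populations in the fit and 2 with each probe set tested alone. Over all genes the calls also fell, from 1421 to 1163 with the brightest probe set and 1132 with only the compared populations. Between Gata6+Itga6+ and CD34+ cells 0 were called, but 1 (Klk7) with the mean of probe sets, which raised the calls over all genes from 819 to 1300. Between Gata6+Itga6+ and remaining basal cells 0 were called, but 1 (Klk7) with the mean of probe sets and 1 (Klk11) after quantile normalization again. Over all genes these fits called 454 and 277, beside 242 in the fit reported. Between CD34+ and remaining basal cells 1 was called, but 2 with the brightest probe set, Klk10 lower (-1.44) and Klk13 turned to higher (1.13), and 0 with each probe set tested alone. Over all genes the brightest probe set gave 685 calls there, beside 892 in the fit reported. The brightest probe set turned Klk11 to -0.44 for Gata6+Itga6- minus CD34+ and to 0.31 for CD34+ minus remaining basal cells. The cause was not tested. Leaving out 1 array at a time gave 2 to 3, 4 to 5, 3 to 3, 0 to 1, 0 to 0 and 1 to 1 calls in the 6 comparisons in the order Gata6+Itga6- against the other 3, Gata6+Itga6+ against CD34+ and remaining basal, and CD34+ against remaining basal, and 4 to 5 for the F test. With the replicate number as a block the counts were 3, 5, 3, 0, 0 and 1, and 4 for the F test, as without it. Same-numbered arrays did not deviate together (r -0.11 to 0.198, 2 of 18 pairs over 0.1, 5 of 12 arrays closest to their own number), so the numbers were not taken as pairing. Letters in the array names, which cross the numbers in CD34+ cells, gave r of -0.124 to 0.198, with 6 of 12 arrays closest to their own letter. With the letter as a block the Klk12 call was lost (limma adjusted p = 0.0722). Whether numbers or letters mark a shared preparation cannot be told from these values. Klk12 was not in the fit without dim genes.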

Other observations

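Some kallikrein probe sets were high on only 1 or 2 of the 3 arrays of a population. A Klk6 probe set read 4.27 in Gata6+Itga6- replicate 2 and 1.20 to 2.13 on the other 11 arrays, and another read 4.53 in replicate 1 and 1.66 to 2.63 elsewhere. A Klk12 probe set read 4.62 in Gata6+Itga6- replicate 1, with 2.14 and 2.77 in the other replicates and 1.12 to 2.24 in the other populations. A Klk9 probe set read 4.38 and 4.50 in remaining basal replicates 1 and 2 against 1.96 in replicate 3 and 1.63 to 2.41 elsewhere. None of these was called.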
